A study of Mus musculus with 45 samples.

Results

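A set of 10 genes of Ly6C-high inflammatory monocytes, Vcan, Fn1, Itga4, F10, Hp, Gsr, S100a4, S100a6, Plac8 and Ms4a4c, was followed across sorted muscle macrophages. The list was given by name, and all 10 were found among the 19752 genes that have a probe set (the array's unit of measurement for 1 transcript) assigned to a single symbol. Each of the 10 had 1 such probe set, and all 10 passed the intensity filter that left 11074 genes to test. The list was chosen with earlier results of these data known. Its counts beside shares of all tested genes are therefore descriptions.

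Male C57Bl6 mice received intramuscular cardiotoxin, a venom toxin that kills muscle fibres and starts regeneration, and macrophages were sorted from the muscle by flow cytometry. Their RNA was measured on Affymetrix arrays (Mouse Gene 1.0 ST), 45 in all, which fall into 18 groups. DTR+ mice carry Foxp3.DTR, in which the Foxp3 promoter drives the diphtheria toxin receptor in regulatory T cells, so that diphtheria toxin (DT) removes those cells, and DTR- mice lack it. The depleted cells are thus not the profiled macrophages, and the depletion itself was not checked here.

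Groups were named by the sample titles. Day 0, without injury, had 2 MHCII+ and 2 MHCII- arrays of DTR- mice aged 10 weeks. Day 1 after injury had 2 arrays of each genotype and subset from mice aged 8 weeks, titled with 24 h of DT. Day 4 had 2 MHCII+ and 2 MHCII- arrays of DTR- mice aged 8 weeks. A day 7 set titled with 8 h of DT came from mice aged 12 weeks and had 3 DTR+ and 3 DTR- MHCII+ arrays and 3 DTR+ and 4 DTR- MHCII- arrays. A day 7 set titled with 24 h of DT came from mice aged 8 weeks and had 2 DTR+ and 4 DTR- MHCII+ arrays and 3 DTR+ and 3 DTR- MHCII- arrays. A last day 7 set, called the untimed set here because its titles give no DT time, came from mice aged 10 weeks and had 2 DTR+ and 2 DTR- MHCII+ arrays. The labels do not say from which moment the DT hours count, nor whether samples came from separate animals, so that p-values measure the spread between samples. The gate in all sets was Ly6g- CD11b+ and positive for the macrophage antigen that Adgre1 encodes. The 8 h set, day 1 and day 4 were also gated SiglecF-, and days 1 and 4 CD45+ DAPI- as well, so that day 0 and the untimed set share an age and a gate while day 0 and day 1 share neither. A label field for sort markers reads MHCII- for all groups except day 0 MHCII+, against the titles, and groups were taken from the titles. H2-Ab1, an MHC class II gene, lay at 13.67 to 14.01 (log2 intensity) on the 24 arrays titled MHCII+ and at 7.81 to 12.45 on the 21 titled MHCII-. Adgre1 itself ranged over 12.40 to 13.24 on arrays of MHCII+ cells and over 12.56 to 13.13 on those of MHCII- cells.

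Monocytes with high Ly6C leave the blood for injured tissue, where they turn into macrophages, and in mouse muscle this influx follows toxin injury closely. On the way they use adhesion molecules such as the alpha 4 integrin, meet matrix built from versican, hyaluronan and fibronectin, and carry proteins of coagulation and of antioxidant defence. As they mature into macrophages, they gradually lose the transcripts that mark the monocyte. In bulk samples, fewer cells of a type and less RNA per cell cannot be told apart.

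Arrays that stood apart bear on several results. Day 0 MHCII- replicate 1 carried transcripts of neutrophils, which the Ly6g- gate should remove: Ly6g lay at 9.22, S100a8 at 11.54, the granule gene Ngp at 11.23 and the mean of the neutrophil list at 9.66. Replicate 2 of that group had lower levels of them, with Ly6g at 5.93, S100a8 at 7.17, Ngp at 8.24 and a list mean of 7.34. MHCII+ DTR- replicate 3 of the 24 h set had a list mean of 7.69, with Ngp at 9.12. Ngp was 4.62 to 6.13 on the 42 other arrays. In the 24 h set, DTR- MHCII- replicate 3 was the highest of its 3 arrays for 9 of the 10 genes. In the 8 h set, replicate 2 of DTR- mice was the lowest array of its group for 9 of 10 genes in MHCII+ and for 8 of 10 in MHCII- cells, and replicate 3 was the highest for 9 and 8. At day 4, MHCII+ replicate 3 exceeded replicate 2 for 10 of 10 genes, and MHCII- replicate 1 exceeded replicate 2 for 9 of 10. Replicate 1 was also the higher of 2 arrays for 9 of 10 genes in untimed DTR+ cells and in DTR+ MHCII+ cells of the 24 h set. In a group of 2 arrays, neither can be said to be the one that stands apart. For how many of all tested genes these arrays were highest or lowest was not computed, so these counts cannot be set against that share. Calls that rest on one of these arrays are given with and without it.

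Promoters of 4 genes are shown, because Vcan, Plac8 and F10 had the largest rises of the 10 in MHCII- cells at day 1 and S100a4 was higher on every day 1 array than on any other array. The 250 bases before the start are given 5′ to 3′ on the gene's strand, from RefSeq on GRCm38.p6. Capitals mark GAGGAA, a core of sites for the myeloid factor PU.1, and the CACCC box, each as spelled or as its reverse complement.
Vcan (chr13:89742513-89742762, minus strand): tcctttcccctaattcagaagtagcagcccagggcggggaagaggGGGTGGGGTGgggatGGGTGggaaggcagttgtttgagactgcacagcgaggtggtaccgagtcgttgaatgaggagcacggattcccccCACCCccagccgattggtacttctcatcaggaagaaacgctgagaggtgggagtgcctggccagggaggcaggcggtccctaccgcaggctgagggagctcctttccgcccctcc
Plac8 (chr5:100572206-100572455, minus strand): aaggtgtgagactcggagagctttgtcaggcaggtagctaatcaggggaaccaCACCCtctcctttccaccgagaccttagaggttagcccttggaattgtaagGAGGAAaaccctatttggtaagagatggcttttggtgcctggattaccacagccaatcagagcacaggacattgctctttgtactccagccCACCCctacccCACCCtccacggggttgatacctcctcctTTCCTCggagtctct
F10 (chr8:13037058-13037307, plus strand): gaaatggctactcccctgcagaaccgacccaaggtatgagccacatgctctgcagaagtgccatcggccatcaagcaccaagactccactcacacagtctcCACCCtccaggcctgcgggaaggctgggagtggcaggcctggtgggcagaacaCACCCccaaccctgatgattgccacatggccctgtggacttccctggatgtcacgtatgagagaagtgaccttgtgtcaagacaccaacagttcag
S100a4 (chr3:90603520-90603769, plus strand): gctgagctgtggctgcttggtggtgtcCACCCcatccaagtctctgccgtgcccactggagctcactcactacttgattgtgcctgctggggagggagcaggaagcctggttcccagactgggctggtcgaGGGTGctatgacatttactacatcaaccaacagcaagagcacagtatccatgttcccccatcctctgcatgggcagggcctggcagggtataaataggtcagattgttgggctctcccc
The Vcan window held 4 matches to CACCC and 0 to GAGGAA, the Plac8 window 3 and 2, the F10 window 2 and 0, and the S100a4 window 2 and 0. No marked matches of different motifs overlap. Over 32851 mouse promoter windows of the same length, 52.0% held CACCC and 23.3% held GAGGAA. One match to TATAAA, present in 12.4% of windows, stood in the S100a4 window alone among these 4, and TTGCNNAA, a form of the C/EBP site found in 9.56%, in none of the 4. These matches describe letters and show no binding. The start of S100a6 lies 9124 bases from that of S100a4 on chromosome 3. The table used gave 8 entries for 7 of the 10 genes, with 2 for Plac8, of which the one shown is the more upstream. Fn1, Hp and Gsr had no entry.

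**Figure D1:**
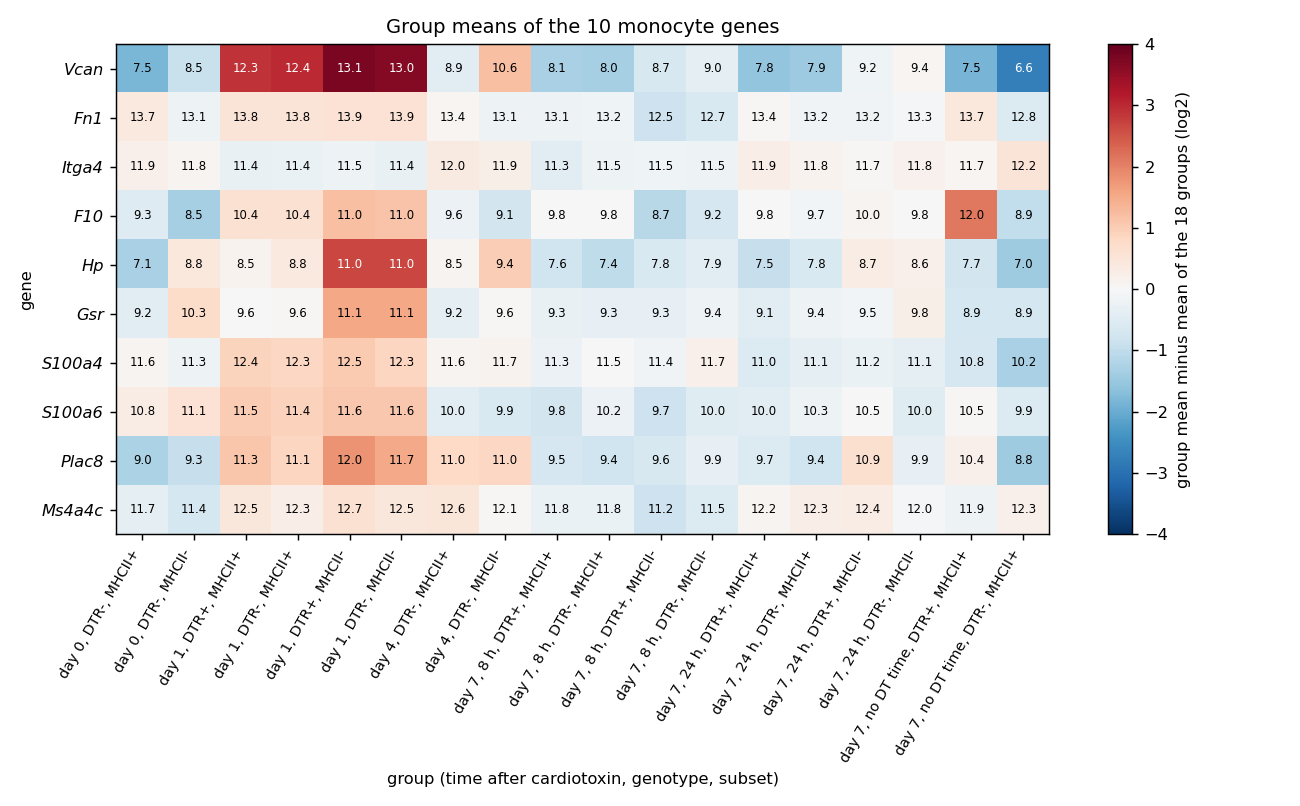
Group means (log2 intensity, printed in each cell) of the 10 genes in the 18 groups, ordered by day. Colour is the group mean minus the mean of the 18 groups for that gene. For 8 of the 10 genes the reddest cell lies in a day 1 column, F10 peaks in the untimed DTR+ group at 11.95, and Itga4 is pale throughout.

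Of the 10 genes, chosen with earlier results of these data known, 8 had their highest group mean at day 1, as did 24.8% of all tested genes. For Vcan, S100a4 and S100a6, each of the 8 day 1 arrays lay above each of the 37 other arrays, which held for 3.96% of all tested genes. Across the 18 group means, the 45 gene pairs had Pearson correlations from -0.655 to 0.924 with a median of 0.579, and 11 pairs exceeded 0.7. All groups share the array platform and its normalization. Vcan and S100a4 correlated at 0.892, Vcan and Plac8 at 0.876, and Hp and Gsr at 0.924. F10 had its highest group mean in the untimed DTR+ group, with the day 1 groups next (10.44 to 11.03). Itga4 had its highest in the untimed DTR- group, and its 8 correlations below 0 ran from -0.222 with Fn1 to -0.655 with S100a4. Among the other 8, not every day 1 group stood high. In day 1 MHCII+ cells of DTR- and DTR+ mice, Hp averaged 8.75 and 8.50 and Gsr 9.64 and 9.57, against 8.81 and 10.33 in day 0 MHCII- cells. The highest array of Ms4a4c, at 12.80, was in the 24 h set.

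The first comparison asked what injury did to these genes within a day. In DTR- mice at day 1 against day 0, 4 of the 10 genes rose and 0 fell in MHCII+ cells (Vcan, Plac8, Hp and S100a4), where 35.6% of all tested genes passed in either direction and 18.6% rose. In MHCII- cells 7 rose and 0 fell (these 4 with F10, Ms4a4c and Gsr), where 25.6% of all tested genes passed and 9.4% rose. The median log2 change of the 10 was 0.67 in MHCII+ and 1.11 in MHCII- cells, against -0.01 and -0.03 over all tested genes. A gene passed at an adjusted p under 0.05 (limma, Benjamini-Hochberg over all tested genes), and changes are log2 differences ± SE with n = 2 arrays a group. Age, gate and DT label differ between day 1 and day 0 along with the injury, and their parts cannot be told apart. In MHCII+ cells 8 of the 10 passed with only the compared sets in the fit and 7 with array quality weights. The share of all tested genes under such alternatives was not computed, here or below, so these counts cannot be set against it. Estimation of the weights stopped before its tolerance was met.

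**Figure D2:**
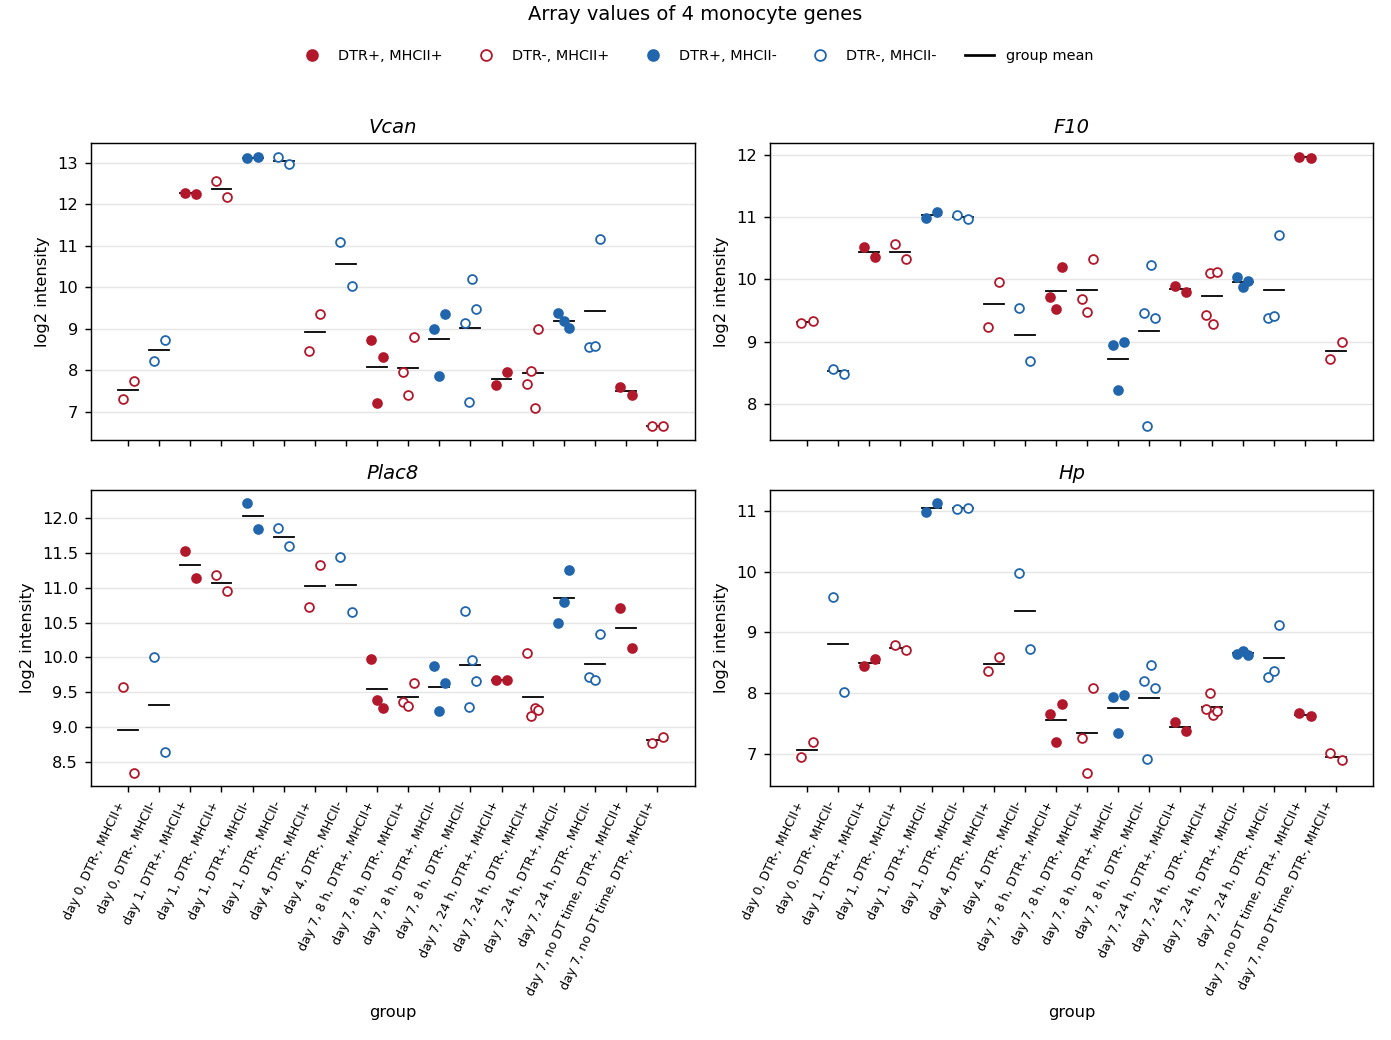
Log2 intensity of Vcan, F10, Plac8 and Hp on each of the 45 arrays by group, with filled circles for DTR+, open circles for DTR-, red for MHCII+, blue for MHCII- and black bars for group means. All day 1 points of Vcan lie between 12.17 and 13.14, above the highest other array at 11.17, and the 2 untimed DTR+ points of F10 stand at 11.95 and 11.96.

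The matrix and adhesion genes were Vcan, Fn1 and Itga4. Vcan encodes versican, a large proteoglycan that binds hyaluronan in provisional matrix. In MHCII+ cells it read 12.57 and 12.17 at day 1 and 7.31 and 7.75 at day 0 of DTR- mice, and in MHCII- cells 13.13 and 12.97 at day 1 and 8.22 and 8.73 at day 0. The groups were more than 4 log2 units apart in both subsets. The day 0 MHCII+ mean, 7.53, lay just below the level of the intensity filter, 7.57. The rise was 4.84 ± 0.70 in MHCII+ (adjusted p = 3.0e-06, a 28.7-fold change) and 4.57 ± 0.70 in MHCII- cells (adjusted p = 6.5e-06, 23.8-fold), and the difference between these rises, tested directly, was 0.27 ± 1.00 (adjusted p = 0.92). None of the 10 passed in that test with all arrays, and 4.66% of all tested genes did. DTR+ day 1 arrays, which entered these tests through the shared spread alone, read 12.27 and 12.25 in MHCII+ and 13.11 and 13.14 in MHCII- cells. Of 5 tested genes of versican and hyaluronan turnover, 2 rose and 1 fell in MHCII+ cells, and 2 rose and 0 fell in MHCII- cells. Tnfaip6, which modifies hyaluronan in inflamed matrix, rose in both, by 0.95 ± 0.27 in MHCII+ cells (adjusted p = 0.0069) and to a mean of 8.82 at day 1 against 7.59 at day 0 in MHCII- cells (8.5e-04).

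Fn1, which encodes the matrix glycoprotein fibronectin, read 13.84 and 13.85 at day 1 and 13.62 and 13.83 at day 0 in MHCII+ cells, and 13.89 and 13.89 at day 1 and 12.78 and 13.46 at day 0 in MHCII- cells. The 8 day 1 arrays spanned 13.83 to 13.90. Within each subset both DTR- day 1 arrays were above both day 0 arrays, as for 37.8% of all tested genes in MHCII+ and 32.1% in MHCII- cells. Neither change passed (0.12 ± 0.34, adjusted p = 0.81; 0.77 ± 0.34, 0.094). Itga4 encodes the alpha 4 integrin chain, which binds VCAM-1 and fibronectin. It was 11.32 to 11.49 on all 8 day 1 arrays and 11.68 to 11.94 on the 4 day 0 arrays. Its differences of -0.47 ± 0.20 and -0.41 ± 0.20 did not pass (adjusted p = 0.072 and 0.15). Of 7 tested integrin partners and fibronectin receptors, 1 rose and 2 fell in MHCII+ cells and 2 rose and 0 fell in MHCII- cells. Itgb7, a partner chain of alpha 4, rose by 0.96 ± 0.26 in MHCII- cells (adjusted p = 0.0050), and Vcam1, which encodes its ligand, fell by 0.74 in MHCII+ cells (SE 0.25, adjusted p = 0.020).

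F10 encodes coagulation factor X, the zymogen that the tissue factor and factor VII complex activates. It read 10.57 and 10.32 at day 1 and 9.30 and 9.33 at day 0 in MHCII+ cells, and 11.03 and 10.96 at day 1 and 8.56 and 8.49 at day 0 in MHCII- cells. The arrays of the days did not overlap in either subset, and day 1 lay above day 0 without overlap for 37.8% of all tested genes in MHCII+ and 32.1% in MHCII- cells. It rose by 2.47 ± 0.47 in MHCII- cells (adjusted p = 1.4e-04), while the difference of 1.13 ± 0.47 in MHCII+ cells did not pass (0.060), and the test between these effects did not pass either (-1.35 ± 0.66, 0.28). Of 10 tested genes of coagulation and fibrinolysis, 3 rose and 2 fell in MHCII+ cells, among them F7, the factor VII gene (1.43 ± 0.26, adjusted p = 6.7e-05), and F3, the tissue factor gene (fell by 1.26, SE 0.18, 2.6e-06). In MHCII- cells 0 rose and 1 fell, the pathway inhibitor gene Tfpi (fell by 1.54, SE 0.17, 1.8e-08).

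Hp encodes haptoglobin, which binds free haemoglobin for uptake through CD163. In MHCII+ cells Hp was 8.79 and 8.71 at day 1 and 6.95 and 7.20 at day 0, a rise of 1.68 ± 0.41 (adjusted p = 0.0019). In MHCII- cells it was 11.03 and 11.04 at day 1 and 9.59 and 8.03 at day 0, a rise of 2.23 ± 0.41 (9.4e-05). The day 0 array at 9.59 is replicate 1, with the most neutrophil transcripts, and without it the rise was 3.01 and still passed. Without replicate 2, which also held some, it was 1.45 (adjusted p = 0.021). Of 6 tested genes of haptoglobin and haemoglobin clearance, 1 rose and 3 fell in MHCII+ and 0 rose and 3 fell in MHCII- cells. Cd163 fell by 1.63 in MHCII+ (SE 0.33, adjusted p = 2.5e-04) and by 1.67 in MHCII- cells (SE 0.33, 2.2e-04), and the iron exporter gene Slc40a1 fell by 1.62 in MHCII+ (SE 0.45, 0.0053) and fell by 3.73 in MHCII- cells (SE 0.45, 7.3e-08).

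Gsr encodes glutathione reductase, which restores reduced glutathione. It was 9.84 and 9.44 at day 1 and 9.06 and 9.25 at day 0 in MHCII+ cells (0.49 ± 0.23, adjusted p = 0.095). In MHCII- cells it was 11.18 and 11.08 at day 1 and 10.66 and 9.99 at day 0 (0.81 ± 0.23, 0.0080). Without day 0 replicate 1 the MHCII- rise was 1.14, and without replicate 2 it was 0.47 and did not pass (adjusted p = 0.24), nor did it without day 1 replicate 1 (0.76, 0.066). Of 11 tested genes of glutathione and thioredoxin reduction, 3 rose and 0 fell in MHCII+ and 2 rose and 2 fell in MHCII- cells. The cystine importer gene Slc7a11 rose in both subsets, by 1.81 ± 0.46 (adjusted p = 0.0026) and 1.55 ± 0.46 (0.011).

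S100a4 and S100a6 encode small calcium-binding proteins of the EF-hand type. S100a4 read 12.32 and 12.32 at day 1 and 11.70 and 11.52 at day 0 in MHCII+ cells, and 12.43 and 12.26 at day 1 and 11.27 and 11.29 at day 0 in MHCII- cells. It rose by 0.72 ± 0.26 (adjusted p = 0.030) and 1.06 ± 0.26 (0.0022), but the MHCII+ call was lost when any 1 of its 4 arrays was left out (0.63 to 0.81, adjusted p up to 0.17). S100a6 was 11.39 and 11.44 at day 1 and 11.12 and 10.45 at day 0 in MHCII+ cells, and 11.61 and 11.53 at day 1 and 11.19 and 10.92 at day 0 in MHCII- cells. Every day 1 array was above every day 0 array, yet neither change passed (0.63 ± 0.33, 0.14; 0.51 ± 0.33, 0.28). Within a subset, such a lack of overlap held for 37.8% of all tested genes in MHCII+ and 32.1% in MHCII- cells. Of 7 other tested S100 genes, 2 rose and 2 fell in MHCII+ and 1 rose and 3 fell in MHCII- cells. S100a10, whose product pairs with annexin A2, rose by 0.32 ± 0.10 (adjusted p = 0.018) and 0.47 ± 0.10 (9.3e-04). In MHCII- cells S100a8 fell by 2.47 (SE 0.64, 0.0038) and S100a9 fell by 2.57 (SE 0.65, 0.0032), beside the neutrophil transcripts of the day 0 arrays. Their part in that fall was not tested.

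Plac8 encodes a small cysteine-rich protein that is abundant in myeloid cells. It read 11.19 and 10.96 at day 1 and 9.58 and 8.34 at day 0 in MHCII+ cells, and 11.87 and 11.61 at day 1 and 10.00 and 8.63 at day 0 in MHCII- cells. The day 0 arrays were spread over more than 1 log2 unit in each subset and stayed below all day 1 arrays. It rose by 2.12 ± 0.41 in MHCII+ (adjusted p = 1.5e-04, 4.35-fold) and 2.42 ± 0.41 in MHCII- cells (2.6e-05, 5.36-fold). These rises were 2.74 and 3.11 without day 0 replicate 1 and 1.50 and 1.74 without day 0 replicate 2, and passed each time. Ms4a4c, a member of the membrane-spanning MS4A family, was 12.48 and 12.21 at day 1 and 12.36 and 11.06 at day 0 in MHCII+ cells, and 12.60 and 12.43 at day 1 and 12.61 and 10.13 at day 0 in MHCII- cells. In both subsets day 0 replicate 1 was at the day 1 level and replicate 2 was below it. The MHCII- rise of 1.15 ± 0.43 (adjusted p = 0.047) turned to -0.09 (adjusted p = 0.91) without day 0 replicate 2 and was 2.39 without day 0 replicate 1. The call was also lost without either day 1 array (1.06, 0.19; 1.23, 0.12), with no filter (0.062) and with only the compared sets in the fit (0.16). The MHCII+ difference of 0.63 ± 0.43 did not pass (0.26), nor did the difference between the subsets' effects (-0.52 ± 0.61, 0.71). Without day 0 MHCII- replicate 1 the latter was -1.76. That value sets day 0 replicate 2 alone in MHCII- cells beside both day 0 replicates in MHCII+ cells. Of 6 other tested MS4A genes, 4 rose in MHCII+ cells, led by Ms4a4a (2.11 ± 0.21, adjusted p = 2.0e-09), and 1 fell in MHCII- cells, Ms4a7 (fell by 0.46, SE 0.13, 0.0092).

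Among 14 other tested genes of Ly6C-high monocytes, 7 rose and 3 fell in MHCII+ and 6 rose and 3 fell in MHCII- cells at day 1. Chil3, a chitinase-like gene of monocytes and alternatively activated macrophages, rose by 3.43 ± 0.55 (adjusted p = 1.2e-05) and 3.23 ± 0.55 (2.9e-05), while Mgst1, a microsomal glutathione transferase gene of the same list, fell by 1.38 (SE 0.29, 4.3e-04) and 0.95 (SE 0.29, 0.014). Resident macrophage genes moved the other way. Of 12, 0 rose and 9 fell in MHCII+ and 0 rose and 10 fell in MHCII- cells, and the complement receptor gene Vsig4 fell by 5.72 in MHCII- cells (SE 0.31, 1.1e-15). Skeletal muscle genes fell too, 4 and 6 of 9, and their list mean was 7.33 to 7.50 on the day 1 arrays and 7.80 to 8.31 on the day 0 arrays. The part of these other cells' transcripts in the changes was not tested.

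**Figure D3:**
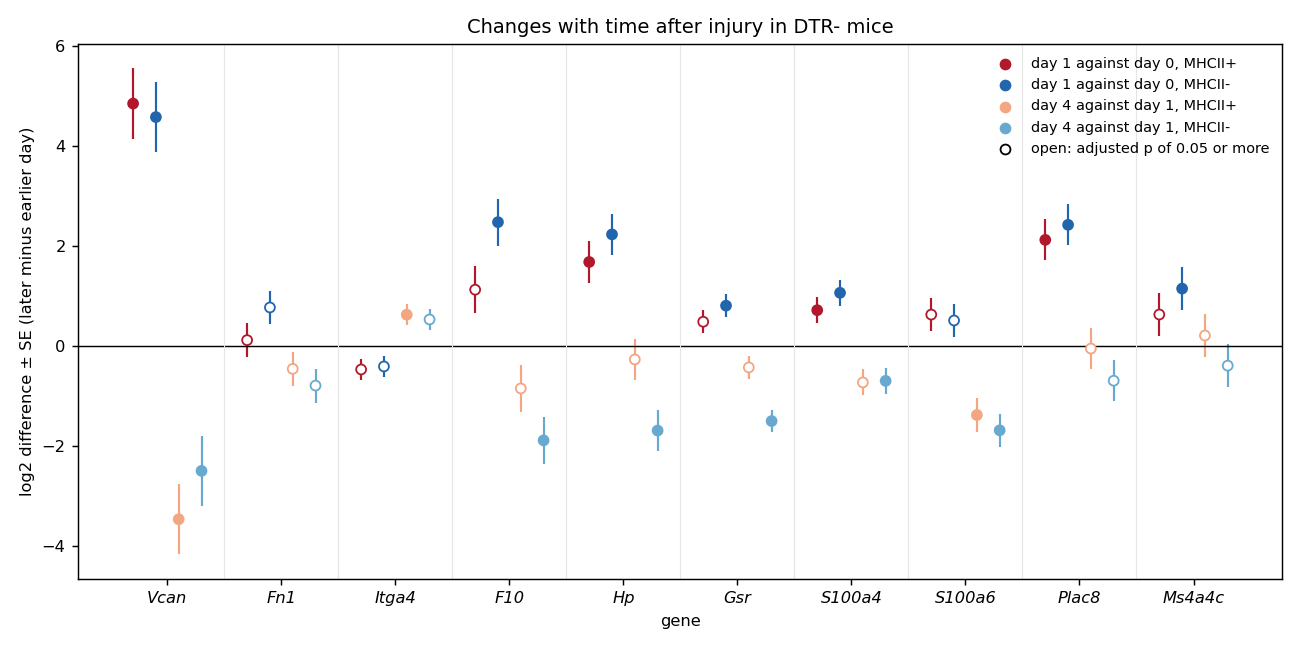
Log2 differences ± SE of the 10 genes in DTR- mice, later minus earlier day, for day 1 against day 0 (dark) and day 4 against day 1 (light), red for MHCII+ and blue for MHCII-, with n = 2 arrays a group; open circles did not pass. Vcan has the largest rises and falls, and Itga4 is the only one of the 10 whose 2 day 1 values lie below 0 and 2 day 4 values above 0.

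The second comparison asked how the genes stood at day 4 against day 1, when age and gate were the same. In MHCII+ cells 2 of the 10 fell (Vcan and S100a6) and 1 rose (Itga4), where 15.4% of all tested genes passed, 7.61% lower and 7.77% higher. In MHCII- cells 6 fell (Vcan, F10, Hp, S100a6, Gsr and S100a4) and 0 rose, where 24.2% passed and 7.31% fell. The median log2 change of the 10 was -0.44 and -1.14, against -0.01 and 0.05 over all tested genes. The day 1 titles carry a DT time and the day 4 titles do not. With only the compared sets in the fit, 6 of the 10 passed in MHCII+ and 10 in MHCII- cells, with no share of all tested genes to set them against.

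Vcan was 8.46 and 9.36 at day 4 against 12.57 and 12.17 at day 1 in MHCII+ cells and fell by 3.46 (SE 0.70, adjusted p = 7.4e-04). In MHCII- cells it was 11.08 and 10.03 at day 4 against 13.13 and 12.97 at day 1 and fell by 2.49 (SE 0.70, 0.0086). Without day 4 replicate 2 the MHCII- difference was -1.97 and did not pass (adjusted p = 0.13), nor did it without day 1 replicate 1 (-2.41, 0.060). F10 was 9.55 and 8.68 at day 4 against 11.03 and 10.96 at day 1 in MHCII- cells, a fall of 1.88 (SE 0.47, 0.0030), lost without day 4 replicate 2 (-1.45, 0.087). Hp was 9.97 and 8.73 at day 4 against 11.03 and 11.04 at day 1 in MHCII- cells, a fall of 1.69 (SE 0.41, 0.0024), likewise lost without that array (-1.06, 0.14) and -2.31 without replicate 1. In MHCII+ cells Hp lay close together at both days, 8.37 and 8.60 at day 4 against 8.79 and 8.71 at day 1 (-0.27 ± 0.41, adjusted p = 0.73).

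Gsr was 9.98 and 9.30 at day 4 against 11.18 and 11.08 at day 1 in MHCII- cells and fell by 1.50 (SE 0.23, adjusted p = 6.4e-06), a call that held without any 1 array. In MHCII+ cells its difference was -0.43 ± 0.23 (0.22), and the test between the subsets did not pass (1.07 ± 0.32, 0.11). Without day 4 MHCII- replicate 1 it was 1.41 and passed (0.043). In that test 0 of the 10 and 1.23% of all tested genes passed. S100a6 was 9.46 and 10.62 at day 4 against 11.39 and 11.44 at day 1 in MHCII+ cells (fell by 1.38, SE 0.33, 0.0036) and 9.92 and 9.85 against 11.61 and 11.53 in MHCII- cells (fell by 1.68, SE 0.33, 2.3e-04). The MHCII+ call was lost without day 4 replicate 2 (-0.79, adjusted p = 0.26). S100a4 fell by 0.69 in MHCII- cells (SE 0.26, 0.047), a call lost without any 1 of the 4 arrays, and its MHCII+ difference of -0.73 ± 0.26 did not pass (0.053) except without day 4 replicate 3 (-0.93, 0.042). S100a10 fell in both subsets, by 0.51 (SE 0.10, 6.9e-04) and 0.51 (SE 0.10, 3.4e-04).

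Itga4 was 11.99 and 12.07 at day 4 against 11.49 and 11.32 at day 1 in MHCII+ cells and rose by 0.63 ± 0.20 (adjusted p = 0.032), lost without any 1 of the 4 arrays (up to 0.20). In MHCII- cells it was 11.87 and 11.93 at day 4 against 11.33 and 11.41 at day 1 (0.53 ± 0.20, 0.054). Vcam1 rose by 1.43 ± 0.25 (1.1e-04) in MHCII+ and 1.30 ± 0.25 (1.6e-04) in MHCII- cells. Plac8 and Ms4a4c did not pass in either subset at day 4. Plac8 was 10.72 and 11.33 in MHCII+ and 11.44 and 10.65 in MHCII- cells (differences -0.05 ± 0.41 and -0.69 ± 0.41, adjusted p = 0.96 and 0.24). Ms4a4c was 12.48 and 12.62 in MHCII+ and 12.27 and 11.98 in MHCII- cells (0.21 ± 0.43 and -0.39 ± 0.43, 0.81 and 0.58). Fn1 averaged 13.39 in MHCII+ and 13.10 in MHCII- cells, with differences that did not pass (-0.46 ± 0.34, 0.41; -0.79 ± 0.34, 0.088).

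Of the 14 other Ly6C-high monocyte genes, 2 rose and 4 fell in MHCII+ and 3 rose and 5 fell in MHCII- cells at day 4. Chil3 fell by 2.86 in MHCII- cells (SE 0.55, adjusted p = 1.6e-04). Cx3cr1, a chemokine receptor gene high in Ly6C-low monocytes and many macrophages, rose by 1.91 ± 0.18 (2.1e-09) and 2.34 ± 0.18 (5.3e-12). Of the 12 resident macrophage genes, 4 rose and 4 fell in MHCII+ and 8 rose and 0 fell in MHCII- cells. Of 9 skeletal muscle genes 4 rose in each subset, and their list mean was 8.11 to 8.18 on the 4 day 4 arrays and 7.33 to 7.50 on the day 1 arrays. Their part in the changes was not tested.

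At day 7 of the 24 h set against day 4, 1 of the 10 genes fell in MHCII+ cells (2.46% of all tested genes passed, 0.768% lower) and 0 changed in MHCII- cells (1.17% passed, with 1362 genes at an unadjusted p under 0.05 in limma). In the test of the difference between these effects 0 of the 10 and 0.0452% of all tested genes passed. Plac8 was 10.07, 9.15, 9.26 and 9.23 at day 7 and 10.72 and 11.33 at day 4 in MHCII+ cells, a fall of 1.60 (SE 0.35, adjusted p = 0.0092). The call was lost without either day 4 array (-1.90, 0.056; -1.29, 0.19) and with array quality weights (-1.66, 0.12), under which 4 of the 10 passed in MHCII- cells. In MHCII- cells Plac8 was 9.72, 9.67 and 10.33 at day 7 and 11.44 and 10.65 at day 4 (-1.14 ± 0.37, 0.14). Vcan was 8.55, 8.59 and 11.17 at day 7 and 11.08 and 10.03 at day 4 in MHCII- cells (-1.12 ± 0.64, 0.50), and 1 of the 3 day 7 arrays was at the day 4 level. Age was the same at both, while the day 7 gate lacks SiglecF, CD45 and DAPI, and the day 7 titles carry a DT time that the day 4 titles lack. Of 9 skeletal muscle genes 7 rose in MHCII+ and 0 in MHCII- cells, and in MHCII+ cells their list mean was 8.77 to 9.45 at day 7 and 8.12 to 8.18 at day 4.

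Day 7 of the untimed set against day 0 was a further comparison over time with the same age and gate, in MHCII+ cells of DTR- mice. Of the 10 genes, 2 fell and 0 rose, where 19.2% of all tested genes passed and 8.72% fell. With only the compared sets in the fit 6 of the 10 passed, with array quality weights 4 and with no filter 1. For these alternatives the share of all tested genes was not computed. S100a4 was 10.26 and 10.15 at day 7 and 11.70 and 11.52 at day 0, a fall of 1.40 (SE 0.26, adjusted p = 1.3e-04) that held without any 1 array. Fn1 was 12.75 and 12.77 at day 7 and 13.62 and 13.83 at day 0, a fall of 0.97 (SE 0.34, 0.041), lost without any 1 of the 4 arrays (up to 0.26). Vcan, at 6.65 and 6.65, was lowest of all groups in these DTR- arrays and did not differ detectably from day 0 (-0.88 ± 0.70, 0.42). Beside S100a4, S100a10 fell by 0.66 (SE 0.10, 1.5e-05) and S100a11 by 0.87 (SE 0.16, 8.4e-05). Of 9 skeletal muscle genes 7 rose, with list means of 9.08 and 9.28 at day 7 and 7.80 and 8.31 at day 0, and their part in these falls was not tested.

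The next comparison asked how MHCII+ differ from MHCII- macrophages. Hp and Gsr were lower in MHCII+ cells at days 0 and 1, and no other gene of the 10 passed in any of the 8 subset comparisons as fitted over all arrays. With only the compared sets in the fit, 5 passed at day 1 in each genotype, a count without a share of all tested genes beside it. Of all tested genes 19% passed at day 0, with 10.6% lower in MHCII+ cells. At day 1, 2.26% passed in DTR+ mice (0.533% lower) and 2.45% in DTR- mice (0.415% lower). None of the 10 passed at day 4 (2.12% of genes), in the 8 h set (7.98% in DTR+, 2.21% in DTR-) or in the 24 h set (1.37% in DTR+, 5.23% in DTR-).

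**Figure D4:**
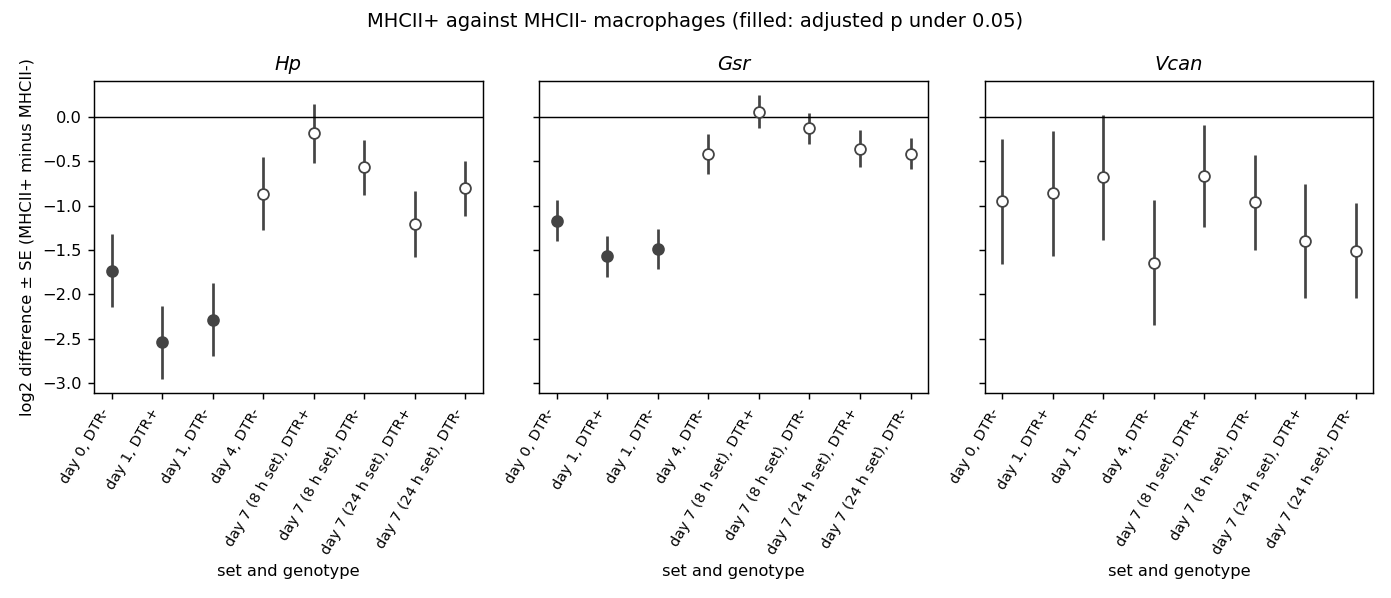
Log2 difference ± SE of MHCII+ minus MHCII- for Hp, Gsr and Vcan in the 8 sets with both subsets, ordered by day, DTR+ left of DTR-, with 2 to 4 arrays a group; filled circles passed. Hp and Gsr lie far below 0 at days 0 and 1, and Vcan lies below 0 in all 8 without passing in any.

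At day 1, Hp was 8.44 and 8.56 in MHCII+ and 10.97 and 11.12 in MHCII- cells of DTR+ mice, and 8.79 and 8.71 in MHCII+ and 11.03 and 11.04 in MHCII- cells of DTR- mice. The subsets were separated by more than 2 log2 units in each genotype. The difference was -2.54 ± 0.41 in DTR+ (adjusted p = 8.7e-05, 5.82-fold) and -2.28 ± 0.41 in DTR- mice (3.9e-04, 4.87-fold). Gsr was 9.57 and 9.57 in MHCII+ and 11.15 and 11.13 in MHCII- cells of DTR+ mice, and 9.84 and 9.44 in MHCII+ and 11.18 and 11.08 in MHCII- cells of DTR- mice. Its difference was -1.57 ± 0.23 (1.5e-05) and -1.49 ± 0.23 (3.2e-05). Both genes are also expressed in neutrophils, and the neutrophil list mean was 6.86 to 6.92 in the 4 MHCII+ and 7.15 to 7.21 in the 4 MHCII- day 1 arrays. Of its 11 tested genes 1 passed in each genotype, Mmp8, a collagenase gene (fell by 2.20 in DTR+, SE 0.32, 1.3e-05, and fell by 2.16 in DTR-, SE 0.32, 1.5e-05). The defining Ly6g ranged over 5.63 to 5.88 in MHCII+ and 5.60 to 6.37 in MHCII- cells and Ngp over 5.15 to 5.23 and 5.15 to 5.34. S100a8 was 5.82 to 6.15 in MHCII+ and 6.73 to 7.45 in MHCII- cells, and Cd177, a neutrophil surface gene outside the list, 7.96 to 8.19 and 9.82 to 9.99. Both lay apart in the direction of Hp. On day 0 MHCII- replicate 1, with the most neutrophil transcripts, S100a8 was 11.54 but Cd177 only 8.41, below its day 1 MHCII- arrays. The part of neutrophil transcripts in the Hp difference was not tested.

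At day 0, Hp was 6.95 and 7.20 in MHCII+ and 9.59 and 8.03 in MHCII- cells (-1.73 ± 0.41, adjusted p = 0.0025). Without MHCII- replicate 1, with the most neutrophil transcripts, the difference was -0.95 and did not pass (0.18), and without replicate 2 it was -2.52. With only the compared sets in the fit the call was lost (0.063). Gsr was 9.06 and 9.25 in MHCII+ and 10.66 and 9.99 in MHCII- cells (-1.17 ± 0.23, 2.9e-04) and still passed without replicate 1 (-0.83, 0.035). The remaining replicate 2 also held neutrophil transcripts, with Ngp at 8.24 against 5.04 and 5.22 in MHCII+ cells, so neither value is free of them. Ms4a4c was 12.36 and 11.06 in MHCII+ and 12.61 and 10.13 in MHCII- cells, with replicate 1 the higher in both. Without MHCII- replicate 1 its difference was 1.58, which sets both MHCII+ replicates against MHCII- replicate 2 alone. Of the 11 neutrophil genes, 0 were higher and 9 lower in MHCII+ cells.

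Vcan had the same sign in all 8 comparisons and passed in none, with differences from -0.66 ± 0.57 in DTR+ mice of the 8 h set (adjusted p = 0.48) to -1.65 ± 0.70 at day 4 (0.39). In the 24 h set it was 7.64 and 7.95 in MHCII+ and 9.38, 9.19 and 9.01 in MHCII- cells of DTR+ mice. In DTR- mice it was 7.66, 7.98, 7.08 and 8.99 in MHCII+ and 8.55, 8.59 and 11.17 in MHCII- cells. The groups were apart in DTR+ and overlapped in DTR- mice (-1.39 ± 0.64, adjusted p = 0.49; -1.51 ± 0.54, 0.096). In these DTR+ mice 6.55% of all tested genes lay lower in MHCII+ cells without overlap. Without MHCII+ replicate 4 the DTR- difference was -1.86 and passed (0.027), and without MHCII- replicate 3 it was -0.64 (0.54). F10 was higher in MHCII+ than in MHCII- cells of DTR+ mice in the 8 h set, 9.72, 9.52 and 10.20 against 8.94, 8.23 and 8.99, without overlap and without passing (1.09 ± 0.38, 0.072). There 9.78% of all tested genes were higher without overlap. Dendritic cell genes, another cell type the MHCII+ gate can hold, were higher in MHCII+ cells in each set (3 to 6 of 7 genes passed), and their part was not tested.

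**Figure D5:**
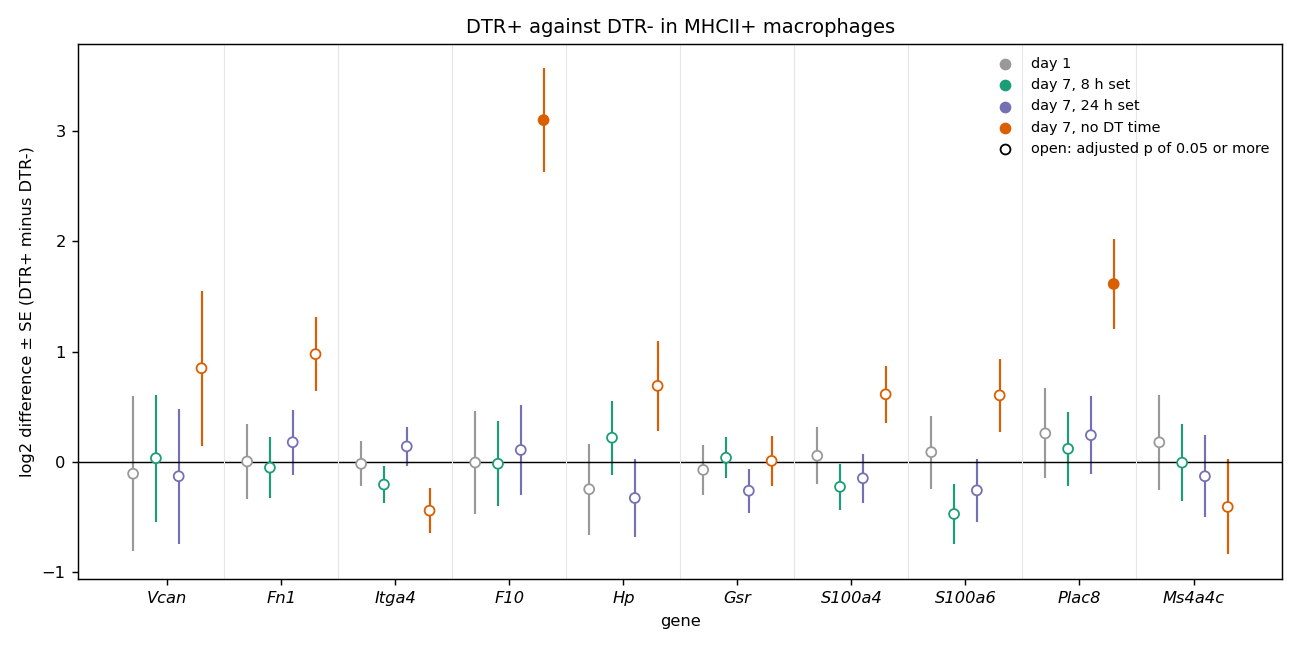
Log2 differences ± SE of DTR+ minus DTR- in MHCII+ macrophages for the 10 genes at day 1 and in the 3 day 7 sets, with 2 to 4 arrays a group; open circles did not pass. Only F10 and Plac8 of the untimed set, at 3.10 and 1.61, are filled.

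The last comparison asked whether loss of regulatory T cells changed these genes. At day 1 and in the 8 h and 24 h sets 0 of the 10 passed in either subset. With array quality weights 4 passed in MHCII- cells of each timed day 7 set, but those weights were uneven. In DTR+ MHCII- cells of the 24 h set they were 0.46, 31.16 and 0.03, so replicate 2 nearly alone set the mean of that group. In the fit without weights, 0% of all tested genes passed at day 1 in both subsets (limma, 25 and 154 genes with an unadjusted p under 0.05 in MHCII+ and MHCII- cells). In the 24 h set 0.0542% and 0.00903% passed and in the 8 h set 0.488% and 0.0181%, in MHCII+ and MHCII- cells. The day 1 differences of the 10 ran from -0.25 (Hp) to 0.26 (Plac8) in MHCII+ and reached at most 0.29 (Plac8) in MHCII- cells. In the 24 h set the largest was Plac8 in MHCII- cells, at 10.50, 10.80 and 11.26 in DTR+ and 9.72, 9.67 and 10.33 in DTR- mice, without overlap and without passing (0.95 ± 0.33, adjusted p = 0.72). In that comparison 2.85% of all tested genes were higher without overlap and 7.78% lower. In the 8 h set the largest was S100a6 in MHCII+ cells (-0.47 ± 0.27, 0.34). In the tests between the subsets' genotype effects 0 of the 10 passed in either set, with 0% of all tested genes passing in both.

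In the untimed set 2 of the 10 genes rose in DTR+ MHCII+ cells and 0 fell, where 11.5% of all tested genes passed and 5.32% rose. With only the compared sets in the fit 9 of the 10 passed, in either direction, and with array quality weights 6. The untimed set had the smallest residual SD of all sets (0.072), and the share of all tested genes under these alternatives was not computed. F10 was 11.96 and 11.95 in DTR+ and 8.72 and 8.99 in DTR- mice. These DTR+ arrays are the highest of all 45 for F10, above the day 1 maximum of 11.08. The rise was 3.10 ± 0.47 (adjusted p = 9.8e-06, 8.56-fold) and held without any 1 of the 4 arrays (2.96 to 3.23). F10 in MHCII+ cells of the other day 7 sets was 9.88 and 9.79 in DTR+ and 9.43, 10.10, 9.28 and 10.12 in DTR- mice at 24 h, and 9.72, 9.52 and 10.20 in DTR+ and 9.69, 9.48 and 10.32 in DTR- mice at 8 h. In a test added after these values were seen, the effect in the untimed set exceeded that at 24 h by 2.99 ± 0.62 (1.5e-03) and that at 8 h by 3.11 ± 0.61 (6.9e-04), where 7.52% and 7.9% of all tested genes passed (2.64% and 4.13% higher).

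Plac8 was 10.71 and 10.13 in DTR+ and 8.76 and 8.86 in DTR- mice of the untimed set and rose by 1.61 ± 0.41 (adjusted p = 0.0064, 3.06-fold). The call was lost without DTR+ replicate 1 (1.32, 0.15) and without DTR- replicate 1 (1.56, 0.067), and the added tests against the other sets did not pass (1.37 ± 0.54, 0.13; 1.49 ± 0.53, 0.077). Fn1 was 13.85 and 13.63 in DTR+ and 12.75 and 12.77 in DTR- mice and just missed the threshold (0.98 ± 0.34, 0.056). Vcan was 7.60 and 7.40 in DTR+ and 6.65 and 6.65 in DTR- mice (0.85 ± 0.70, 0.56), far below its day 1 level in both genotypes. S100a4 (0.61 ± 0.26, 0.14), S100a6 (0.60 ± 0.33, 0.30), Hp (0.69 ± 0.41, 0.35), Gsr (0.01 ± 0.23, 0.99), Itga4 (-0.44 ± 0.20, 0.19) and Ms4a4c (-0.41 ± 0.43, 0.67) did not pass.

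Other coagulation genes of the untimed set were read beside F10. Of 10 tested, 2 were higher and 1 lower in DTR+ cells. F7 averaged 11.67 in DTR+ and 8.83 in DTR- mice (2.84 ± 0.26, adjusted p = 5.0e-10), and F3 8.87 and 6.91 (1.97 ± 0.18, 5.9e-10), while F13a1, which encodes the clot-linking factor XIII A chain, fell by 1.30 (SE 0.17, 5.8e-07). Of the 14 other Ly6C-high monocyte genes 1 rose, Chil3, which averaged 12.18 in DTR+ and 5.44 in DTR- mice (adjusted p = 3.4e-11), and 4 fell, among them Clec4d (fell by 1.96, SE 0.25, 4.7e-07) and Cd93 (fell by 1.43, SE 0.17, 1.2e-07). No fold is given for Chil3, since its DTR- mean lay far below the filter level of 7.57. Of 12 resident macrophage genes 0 were higher and 6 lower in DTR+ cells, and Gas6 fell by 2.43 (SE 0.23, 9.7e-10). Of 7 integrin partners and fibronectin receptors 3 rose and 0 fell, Itgb3 by 1.01 ± 0.17 (5.8e-05). Of 9 skeletal muscle genes 8 were lower in DTR+ cells, with list means of 8.29 and 8.55 in DTR+ and 9.08 and 9.28 in DTR- arrays. Of 11 neutrophil genes 1 rose and 0 fell, with list means of 6.89 and 7.00 in DTR+ and 6.59 and 6.70 in DTR- arrays. The part of muscle or neutrophil transcripts in the F10 and Plac8 differences was not tested.

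Genes with the most similar pattern were named by the Pearson correlation of 18 group means, among tested genes outside the 10, and this is given as a description. For Vcan they were Utp4 (0.97), Pde8a (0.96) and Lmnb1 (0.96), and for Plac8 they were Treml2 (0.95), Tex10 (0.91) and Cnot7 (0.91). F10 was closest to Chst11 (0.94), Upp1 (0.91) and Tarm1 (0.89), and Fn1 to Emb (0.94). Hp was closest to Cd177 (0.96) and Gsr to Slpi (0.97), both of which are known from neutrophils. Cd177 was 8.41 on day 0 MHCII- replicate 1, with the most neutrophil transcripts, and 9.82 to 9.99 on day 1 MHCII- arrays. S100a4 was closest to S100a10 (0.94), S100a6 to Anxa2 (0.94), which encodes the annexin partner of S100a10, Ms4a4c to Helz2 (0.86) and Itga4 to Naip6 (0.93).

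Most neighbours in the order of group means had overlapping arrays. For Vcan, 3 of the 17 steps between neighbouring groups were free of overlap between arrays. Of these, 2 bounded the day 1 MHCII+ groups, at 12.26 in DTR+ and 12.37 in DTR- mice, from day 1 MHCII- above, at 13.12 and 13.05, and day 4 MHCII- below, at 10.56. The other set the lowest group, untimed DTR- at 6.65, apart from untimed DTR+ at 7.50, both below the filter level of 7.57. For F10 the steps without overlap lay below the untimed DTR+ group at 11.95, between day 1 MHCII- (11.03 in DTR+ mice) and MHCII+ (10.44 in both genotypes), and below day 1 MHCII+. That last step separates only the next group, DTR+ MHCII- of the 24 h set at 9.96. A group further down, DTR- MHCII- of the 24 h set, reached 10.71 on 1 array, above the lowest day 1 array at 10.32. The lowest group was day 0 MHCII- at 8.52. For Plac8 the single such step lay below day 1 MHCII-, at 12.03 and 11.74. Its next groups were day 1 MHCII+ (11.34 and 11.08), day 4 (11.05 in MHCII- and 11.03 in MHCII+) and DTR+ MHCII- of the 24 h set (10.85), and the lowest was untimed DTR- at 8.81. For Ms4a4c 0 of 17 steps were free of overlap, for Itga4 and Gsr 1, for Hp 2, for Fn1 and S100a6 3 and for S100a4 4.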

How the data were processed

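The deposited table gives RMA intensity per probe set and array on a linear scale (9.43 to 24649, array medians 174.7 to 203.7), which the authors made by RMA in Affymetrix Power Tools according to the submitters' processing notes. The sources used here do not give versions. RMA has already corrected background, normalized and summarized the probes, so small values are shrunk toward each other, differences against low values may be understated, and no further scaling was applied. Of 24922 probe sets, 21425 have 1 symbol in the platform annotation, 1399 several and 2098 are not listed there. For each gene the single-symbol probe set with the highest mean was kept (19752 genes). Values were taken as log2, and a gene was tested if any group's mean was no lower than the overall median of log2 values, 7.57, which kept 11074.

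One mean per group was fitted over the 45 arrays with limma 3.58.1 in R 4.3.3 (27 residual degrees of freedom, empirical Bayes with an intensity trend), so all groups share 1 estimate of the spread. P-values were adjusted by Benjamini-Hochberg within each of 27 comparisons, and 2 comparisons between day 7 sets were added after values were seen. The test was tried on simulated data first. No pair of arrays was identical (0 pairs), and precision is limited by how many arrays a group has. Tables and plots used Python 3.11.15, pandas 2.3.3 and matplotlib 3.10.9.

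The 10 genes and 19 accompanying lists were chosen with earlier results of these data known. All 10 genes are given, called or not. From each other list up to 3 genes per direction with the smallest adjusted p may be named, and the nearest patterns are the 3 (Vcan, Plac8, F10) or 1 (other genes) tested genes with the highest correlation of group means, skipping predicted and small-RNA genes. Replicate numbers taken from the titles are shared between groups. Among the 3 comparisons with 3 shared numbers, the deviations of same-numbered samples correlated above 0.1 in every pair for MHCII+ against MHCII- of DTR- mice in the 8 h set (0.527, 0.480 and 0.583). The lowest correlation was -0.019 for that comparison in the 24 h set and 0.092 for DTR+ against DTR- in MHCII- cells of the 24 h set, and 2 shared numbers were not taken as pairing. DTR+ and DTR- samples in MHCII- cells of the 8 h set, which cannot come from the same animals, also correlated at 0.268 and 0.691. Such correlations thus do not establish pairing. Alternatives were no filter, the mean of all probe sets, quantile normalization, array quality weights, only the compared sets in the fit, a replicate block and leaving out each array. Genes with no single-symbol probe set, among them Ly6c2, were not analysed here.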

Additional observations from a re-analysis of the deposited data

Results flagged for a closer look

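The effect of DTR+ against DTR- on F10 in MHCII+ macrophages differed between day 7 sets by a test of the difference itself. It was larger in the set without a DT time than in the 24 h set by 2.99 ± 0.62 (log2 difference ± SE, limma, adjusted p = 0.0015), and than in the 8 h set by 3.11 ± 0.61 (adjusted p = 6.9e-04). Both tests were added after the values were seen. They held without any 1 of the arrays compared, with values of 2.85 to 3.14 and 2.87 to 3.31. Mouse age and DT label differ between the untimed set and both other sets along with the effect, the gate differs between the untimed and 8 h sets alone, and the parts of age and DT label cannot be told apart.

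An array stood far from the others of its group in 2 of the 20 gene and group pairs with at least 4 arrays, where chance flags about 1 in 20 groups. These pairs come from 2 groups, so their genes share arrays. Plac8 was 10.07 in replicate 1 of DTR- MHCII+ cells in the 24 h set, against 9.15 to 9.26 on the other arrays of that group. Fn1 was 11.39 in replicate 2 of DTR- MHCII- cells in the 8 h set, where the group's median was 13.05 and its highest array 13.31.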

How the results depend on the processing

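Among calls of the 10 genes, 20 of 33 held without any 1 array and 13 were lost without at least 1. The Ms4a4c rise at day 1 in MHCII- cells ranged from -0.0915 to 2.39 when 1 array was left out, the lowest without day 0 replicate 2. Counts of the 10 genes that passed moved under several alternatives. With only the compared sets in the fit, the spread comes from those sets. The residual SD (median over genes, log2) was 0.115 at day 0, 0.084 at day 1, 0.117 at day 4 and 0.072 in the untimed set, and 0.156 in the 8 h and 0.204 in the 24 h set. Under this alternative day 1 against day 0 in MHCII+ cells went to 8 in place of 4, day 4 against day 1 to 6 in place of 3 (MHCII+) and 10 in place of 6 (MHCII-), and untimed day 7 against day 0 to 6 in place of 2. MHCII+ against MHCII- went to 5 in place of 2 at day 1 in both genotypes, to 1 in place of 0 at day 4 and in both genotypes of the 24 h set, and the untimed genotype effect to 9 in place of 2. The differences between subsets went to 1 and 2 in place of 0 (day 1 against day 0, day 4 against day 1). With array quality weights, whose estimation stopped before its tolerance was met, the counts became 7 for day 1 against day 0 (MHCII+), 0 and 4 for day 7 against day 4 (MHCII+ and MHCII-), 4 for untimed day 7 against day 0, 1 for the subsets in DTR- mice of the 8 h set, 4 for the genotype effect in MHCII- cells of both timed sets, 6 for the untimed genotype effect, 1 for the difference between subsets of day 4 against day 1, and 2 and 5 for the added differences against 24 h and 8 h (1 each in the original fit). Quantile normalization gave 1 in place of 0 for the subsets in DTR+ mice of the 8 h set and for the difference between subsets of day 4 against day 1, and no filter gave 1 in place of 2 for untimed day 7 against day 0. The cause of these shifts was not tested. Nor was the share of all tested genes computed under these alternatives.

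Leaving out 1 array gave 3 for day 1 against day 0 in MHCII+ and 5 to 7 in MHCII- cells, 1 to 3 and 2 to 5 for day 4 against day 1, and 0 to 1 for day 7 against day 4 in MHCII+ cells. It gave 1 for untimed day 7 against day 0, 1 to 2 for the untimed genotype effect, and 0 to 1 for the subsets in DTR- mice of the 24 h set and for both differences between subsets. The low values of day 4 against day 1 came without day 4 replicate 2 of either subset, and the subset call of the 24 h set came without DTR- MHCII+ replicate 4. With the replicate number as a block, the 8 h subset comparison in DTR- mice, where same-numbered samples correlated, had 0 calls as without it. The 24 h subset comparison in DTR- mice gained 1 call, Vcan (-1.86, adjusted p = 0.025). That value is also the one without MHCII+ replicate 4, whose number the MHCII- group lacks, and no block (adjusted p = 0.027). S100a4 at day 4 against day 1 in MHCII- cells was lost (adjusted p = 0.051), and the block changed no other call. No block was fitted for 9 planned comparisons because their groups share too few numbers.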
